A study of Mus musculus with 12 samples.

Results

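The comparison described here sets ovaries of mice raised without dietary vitamin D in early life against ovaries of mice on a normal diet. It takes 8 of the 12 samples of the series, chosen by the titles and diets that the labels give, 4 early-life samples (E1 to E4) and 4 control samples (C1 to C4). All were 2-month-old C57BL/6J females, an inbred laboratory strain, and the design names the 4 females of a group as biological replicates. Early-life females ate a vitamin D-deficient diet only during early life, and control females ate a normal diet throughout. The ovaries were taken out and minced, so each RNA sample mixes all cell types of the tissue taken. The other 4 samples, from females deficient around puberty (P1 to P4), lie on another slide. They entered the scaling between arrays, the filter on dim probes and the choice of probe for each gene. In the model they helped to estimate the spread and the dye effect, but they are not part of the difference tested.

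The 2 deposits of this series name the control and early-life samples differently, and this bears on every sign below. Group names here follow the titles of the scanner files. The deposited value table has the columns of these groups exchanged. The column named C1 matched the scanner channel of E3, C2 matched E4, C3 matched E1 and C4 matched E2. In turn E1 matched C3, E2 matched C4, E3 matched C1 and E4 matched C2. These matches had correlations across features of 0.999767 to 0.999821, against 0.9638 to 0.9849 with the channel of the same name. The value table's peripubertal columns matched no scanner channel, with correlations of 0.874 to 0.897 at best, and peripubertal values given here come from the scanner files. The deposits do not settle which of them names the arrays correctly. Every difference is given as early life minus control by the scanner labels, and all signs turn if the value table is right.

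Vitamin D is converted to a steroid hormone, calcitriol, which binds the vitamin D receptor, a nuclear transcription factor. The receptor pairs with a retinoid X receptor on DNA, and known targets include genes of calcium transport and of the hormone's own breakdown. In the ovary the receptor is found in granulosa cells among others, and the hormone is known to influence follicle development, steroid synthesis and anti-Müllerian hormone. The adult mouse ovary cycles every few days, and the labels used here do not give the cycle stage of the females.

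A single slide held both groups. Every array bore 2 samples of the same group, with Cy3 as the dye of replicates 1 and 3 and Cy5 as that of replicates 2 and 4. Median signals were 158 to 295 intensity units, 6.85 to 9.49 times the background, with 59.0% to 64.6% of probes well above background and 0 saturated spots. The largest principal component held 55.49% of the variance among the 8 samples. Its order ran from E4 (51.57) through E1 (36.28), E3 (22.46), C4 (-0.74), C1 (-8.88), E2 (-25.34) and C2 (-36.95) to C3 (-38.4). E2 therefore lay among the controls on this axis, away from the other 3 early-life samples. Markers of the oviduct, the tube joined to the ovary, nearly followed the same order, with mean log2 levels from 13.0 in E4 and 12.49 in E1 down to 9.67 in C2 and 9.03 in C3, and only C1 and C4 changed places.

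In the model over 18854 genes and transcripts, 0 differed between the groups at a Benjamini-Hochberg adjusted p under 0.05 (0% called, limma, smallest adjusted p = 0.0513). At an unadjusted p under 0.05, 842 genes (4.47%) were higher and 1772 (9.4%) lower in early-life ovaries, so that 67.79% of them were lower. Among 15808 genes measured in all 8 samples, the 4 early-life values all lay above the 4 control values in 575 (3.64%) and all below them in 1889 (11.9%). Such genes are called separated here. The median difference over all genes was -0.02 on the log2 scale.

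The size and direction of these counts depended on single samples and on scaling. Without E2, 88 genes passed the adjusted threshold, 3996 had an unadjusted p under 0.05, and only 51.58% of those were lower. Without E1 the unadjusted count was 1417. Called genes numbered 11 without C2, 2 without C3, 1 without E4 and 0 without C1, C4, E1 or E3. Leaving out an array of 2 samples gave 75 calls without C1 and C2, 19 without C3 and C4, 16 without E1 and E2, and 6 without E3 and E4. Genes lower in early life made up 55.9% of the unadjusted count without E1 and E2, 50.15% without E3 and E4, and 50.42% when the samples of an array were averaged. Scaling each sample to its median, in place of the scaling between arrays, moved the median of all genes to -0.14. Of the unadjusted count 87.37% were then lower, with 34 called.

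**Figure D1:**
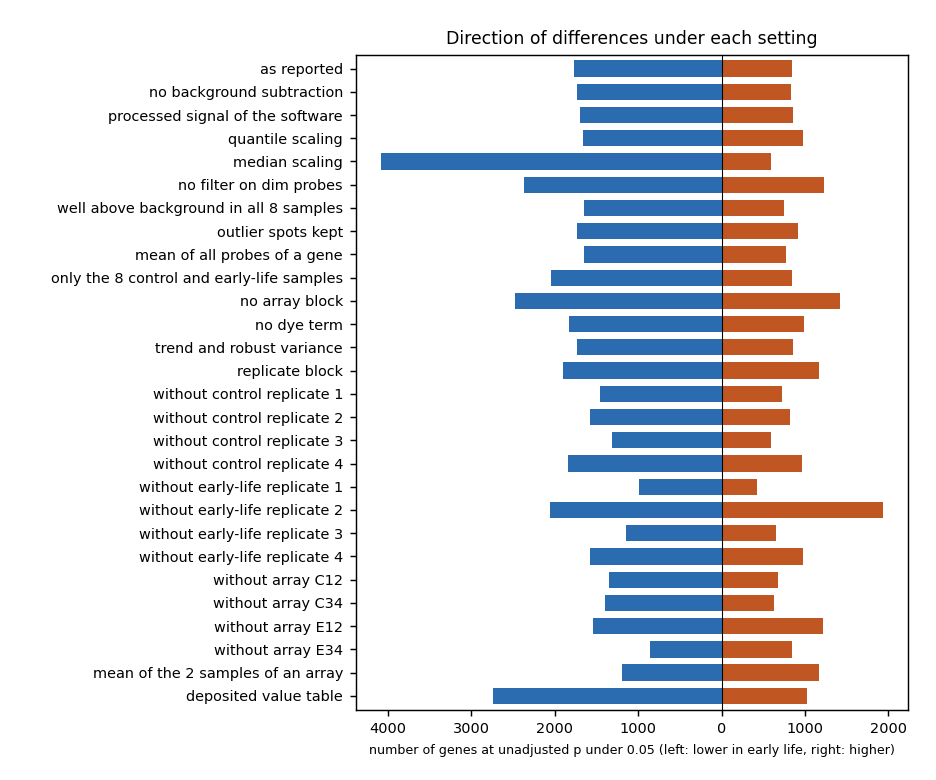
Number of genes at an unadjusted p under 0.05 (horizontal axis) that were lower (left, blue) or higher (right, orange) in early-life than in control ovaries, as reported and under 27 other settings (rows). The reported bar holds 1772 lower and 842 higher genes, the setting without early-life replicate 2 holds 2061 and 1935, and median scaling holds 4087 and 591.

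Values below are log2 intensities after removal of the dye effect, differences are early life minus control with the standard error of the model, and a difference of 1 is 2-fold. Since no gene passed the adjusted test, the genes named are described by their values. The first set consists of the 15 widest differences in each direction among separated genes with an unadjusted p under 0.01. Of the higher genes 14 are described. Their separation was part of how they were chosen and is therefore no finding. The adjusted p values (limma) of these 14 higher genes were 0.155 to 0.245 and those of the 15 lower genes 0.0916 to 0.250.

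The widest higher differences were found for Sncg and Atp2b2. Sncg encodes gamma-synuclein, a small protein best known from nerve cells. It measured 8.75, 9.01, 8.56 and 8.78 in C1 to C4 and 12.64, 10.66, 10.08 and 10.22 in E1 to E4, a difference of 2.13 ± 0.60. The controls were tight and E1 stood well above the other early-life samples. Atp2b2 encodes a plasma membrane pump that exports calcium from the cell. Its values were 8.16, 7.63, 7.39 and 8.07 in the controls and 10.53, 8.63, 9.82 and 10.60 in E1 to E4 (2.08 ± 0.52), and another probe gave 1.76. Here E2 was the early-life sample nearest to the controls.

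Col27a1, a fibrillar collagen, measured 8.60, 8.96, 8.10 and 8.05 in C1 to C4 and 10.61, 9.60, 10.36 and 10.05 in E1 to E4 (1.73 ± 0.37). Fbn2, the microfibril protein fibrillin-2, differed by 1.23 ± 0.28, and Cemip, which takes part in the breakdown of hyaluronan, by 1.29 ± 0.39. Mlf1, myeloid leukemia factor 1, had narrow groups, with 10.73, 10.41, 10.21 and 11.07 in the controls against 12.12, 12.08, 11.91 and 11.82 in E1 to E4 (1.38 ± 0.25; adjusted p = 0.155, limma). In Mlf1 the gap between the groups exceeded the whole range of the early-life samples, and E2 did not stand apart.

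The zinc finger gene Zfp469 differed by 1.68 ± 0.42, the Notch-binding membrane protein Dner by 1.45 ± 0.42, the microtubule-associated protein Map1b by 1.40 ± 0.42 and the cadherin Cdh16 by 1.31 ± 0.38. The ubiquitin ligases Rnf152 and Peli3 differed by 1.30 ± 0.36 and 1.27 ± 0.39, the G-protein regulator Rgs6 by 1.25 ± 0.26 and protein kinase D1, Prkd1, by 1.21 ± 0.31. Rgs6, Dner and Cdh16 were each well above background in 4 early-life samples but only 1 control, and in 2, 1 and 2 peripubertal samples. They met the filter on dim probes only through early-life samples, so their adjusted p values are no support. Without E2, Atp2b2, Zfp469, Rgs6 and Col27a1 passed the adjusted threshold (adjusted p = 0.0423, 0.0493, 0.0493 and 0.0497, limma). Their differences were then 2.59, 2.01, 1.41 and 1.97. In each of them E2 was the early-life sample nearest to the controls. Leaving it out widened the differences, so these p values are no support either. E2 was the early-life sample nearest to the controls in 7 of the 14 higher genes.

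The widest difference of the named genes was a lower one. Serpina3a belongs to a cluster of closely related serine protease inhibitors, and whether its probe also binds transcripts of the neighbouring copies was not examined. Its probe (build mm9, chr12:105359965-105360024) measured 13.44, 12.78, 9.60 and 12.17 in C1 to C4 and 7.30, 6.88, 7.99 and 6.99 in E1 to E4. The difference was -4.71 ± 0.79 (adjusted p = 0.0988, limma), 26.1-fold lower, and another probe gave -3.48. C3 stood well under the other controls but above all early-life samples. Without C3 the difference was -5.56 and passed (adjusted p = 5.62e-05, limma). C3 was the control nearest to the early-life samples. Leaving it out widened the difference, so that p value is no support for it. The peripubertal mean was 8.01.

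Akr1b7, an aldo-keto reductase that detoxifies a by-product of steroid synthesis, measured 9.24, 8.57, 10.47 and 9.23 in C1 to C4 and 6.77, 7.62, 7.12 and 7.95 in E1 to E4 (-2.01 ± 0.48). Cyp4f14 is a cytochrome P450 that hydroxylates leukotrienes and fatty acids. Its probe (mm9, chr17:33042214-33042273) read 9.40, 9.26, 9.91 and 9.39 in the controls and 7.47, 8.26, 7.69 and 8.06 in E1 to E4, a difference of -1.62 ± 0.25 (adjusted p = 0.0931, limma). A wide gap lay between the groups, and without E2 Cyp4f14 passed (adjusted p = 0.0423, limma, difference -1.80). E2 was its early-life sample nearest to the controls, so that p value is no support for the difference. The peripubertal mean was 9.90, which lay near the controls.

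Slc11a1, a metal transporter of macrophage phagosomes, measured 10.03, 9.39, 9.54 and 8.70 in C1 to C4 and 6.64, 7.91, 7.799 and 8.15 in E1 to E4 (-1.79 ± 0.48), with E1 the lowest sample. Kiss1 encodes kisspeptin, a peptide best known for driving gonadotropin-releasing hormone neurons, and it is also made in the ovary. It measured 8.90, 9.70, 10.004 and 9.14 in the controls and 7.53, 7.94, 8.24 and 8.46 in E1 to E4 (-1.40 ± 0.39), and another probe gave -0.90. Tmem200a, a transmembrane protein, had a wide spread among controls, from 9.33 in C2 to 12.17 in C3, against 7.93 to 9.18 in early-life samples (-2.36 ± 0.67). Its groups were separated by only the step from E2 to C2.

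Among the remaining lower genes were Sez6l2 (-1.61 ± 0.31), the ammonia channel Rhcg (-1.49 ± 0.45), Ppp1r14a (-1.46 ± 0.46), which inhibits myosin phosphatase in smooth muscle, and Rundc3a (-1.35 ± 0.22, adjusted p = 0.0972, limma). Islr and its relative Islr2, which carry leucine-rich repeats, differed by -1.36 ± 0.36 and -1.31 ± 0.31, and the mitochondrial calcium-binding protein Efhd1 by -1.35 ± 0.40. Rundc3a passed without E2 (adjusted p = 0.0423, limma, difference -1.51). Here too E2 was the early-life sample nearest to the controls, so that p value is no support for the difference. The sensory-neuron receptor Mrgpra1 was well above background in all 4 controls, but in 0 early-life and 0 peripubertal samples (peripubertal mean 6.12). It therefore met the filter on dim probes only through the controls. Its control values of 7.64, 6.99, 7.39 and 7.21 gave a level at least 1.73-fold lower in early-life ovaries. Because of that filter its adjusted p values (limma) are no support for the difference. They were 0.0916 as reported, 0.0262 without C2 (-1.45) and 0.0493 without E2 (-1.33).

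**Figure D2:**
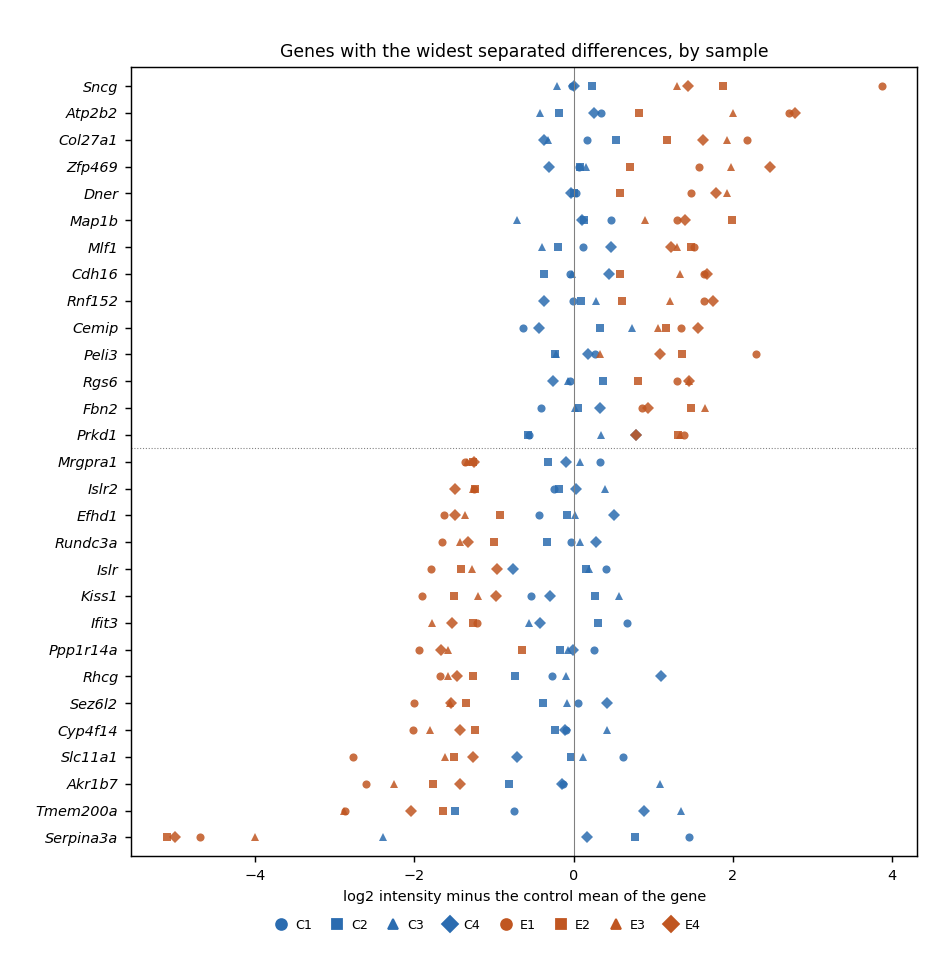
Log2 intensity of each sample minus the control mean of the gene (horizontal axis) for the 14 higher and 15 lower genes described (rows), with controls in blue, early-life samples in orange and one marker shape per replicate number. E2 (orange square) is the early-life point nearest to the controls in 7 higher and 8 lower genes, and Serpina3a reaches differences near -5.

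Genes of the vitamin D pathway went both ways, from -1.99 to 2.07, around a list median of -0.05. Of 18 measured members, 2 had an unadjusted p under 0.05, both lower, against 9.4% of all genes lower and 4.47% higher. Of the 16 members measured in all samples, 4 were separated and lower and 0 higher, against 11.9% and 3.64% of all genes. These 4 shares are the background of the reported list counts that follow. List counts under another setting have that setting's own background. Over all genes, 1772 were lower and 842 higher at an unadjusted p under 0.05 as reported. These numbers were 4087 and 591 with median scaling, 2061 and 1935 without E2, and 990 and 427 without E1. The deposited value table gave 2742 lower and 1022 higher. The lower count was 1 without C1 or C3 and 0 without E1 or E3, and 3 members were higher without E2. The receptor gene Vdr measured 8.20, 7.85, 8.26 and 8.56 in C1 to C4 and 8.61, 8.14, 8.39 and 8.66 in E1 to E4, so the groups overlapped (0.23 ± 0.26). Cyp24a1, which breaks the hormone down, did not pass the filter on dim probes. The 4 measured genes of vitamin D metabolism all had negative differences, with a median of -0.32. Of these, the 3 measured in all samples were separated. None of the 4 breaks the hormone down. Dhcr7, which also belongs to the cholesterol supply list, had the lowest difference (-1.045).

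Cyp2r1 and Cyp27a1, which carry out the activation step of the liver, were the members at an unadjusted p under 0.05. Cyp2r1 measured 9.45, 9.25, 8.95 and 9.0003 in the controls and 8.65, 8.87, 8.71 and 8.82 in E1 to E4 (-0.40 ± 0.14; adjusted p = 0.309, limma). Cyp27a1 ran from 7.08 to 7.38 in the controls and from 6.92 to 7.06 in early-life samples (-0.25 ± 0.11). Both were separated by narrow margins. Cyp27b1, which makes the active hormone, differed by only -0.08 ± 0.07.

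Transcripts that the hormone is known to induce in other tissues went both ways. Spp1, which encodes osteopontin and is also made by macrophages, measured 11.58, 9.77, 11.82 and 9.76 in C1 to C4 and 8.09, 9.44, 8.003 and 9.44 in E1 to E4 (-1.99 ± 0.92; adjusted p = 0.3703, limma). Its Cy3 samples (odd numbers) were farther apart than its Cy5 samples. S100g, the intestinal calcium-binding protein calbindin-D9k, measured 10.45, 7.96, 8.10 and 9.06 in the controls and 12.04, 7.83, 11.60 and 12.38 in E1 to E4 (2.07 ± 1.39; adjusted p = 0.506, limma). E1, E3 and E4 were above every control while E2 was below all of them, the same 3 samples that were high in oviduct markers. The uptake receptor gene Lrp2 had the same high samples, with 9.81, 9.195 and 9.29 in E1, E3 and E4 against 7.86 in E2 and 7.88 to 8.33 in the controls.

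Though the shorter macrophage list had a larger share (11 of 20), interferon-response genes had the most members at an unadjusted p under 0.05 of all lists. Cells switch them on when the type I or type II interferon receptor activates STAT and IRF transcription factors. Of 34 measured members, 15 had an unadjusted p under 0.05 and were lower, 0 were higher, and 10 of the 26 measured in all samples were separated, all lower. The list median was -0.39. The mean level of the 26 ran from 9.31 in C3 to 9.92 in C1 and from 8.99 in E2 to 9.51 in E4. C3 lay below E1 (9.39) and E4, so the groups of that mean overlapped. The background shares of the reported fit are 9.4% and 11.9% of all genes. The lower count was 11 to 18 without single samples.

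By role, 11 of 24 antiviral effectors, 1 of 3 sensors of viral nucleic acid and 3 of 5 transcription factors had an unadjusted p under 0.05. Ifit3, an effector that binds viral RNA complexes, measured 11.13, 10.76, 9.89 and 10.04 in C1 to C4 and 9.25, 9.19, 8.68 and 8.92 in E1 to E4. The controls on 1 array were higher than those on the other, and both pairs lay above all early-life samples. Isg15, a ubiquitin-like modifier, measured 12.22, 11.59, 10.99 and 11.28 in the controls and 10.55, 10.28, 9.98 and 10.80 in E1 to E4 (-1.12 ± 0.32). Irf7, the transcription factor that amplifies the response, measured 8.57, 8.25, 8.07 and 8.37 against 7.58, 7.54, 7.56 and 8.03 (-0.64 ± 0.18).

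Ddx58, the sensor RIG-I, had the smallest adjusted p of the list (0.0988, limma). Its values of 11.38, 11.28, 11.06 and 11.28 in C1 to C4 and 10.70, 10.59, 10.48 and 10.65 in E1 to E4 left a wide gap for their spread (-0.64 ± 0.11), and another probe gave -0.31. Irf9, the DNA-binding subunit of the interferon-activated complex ISGF3, differed by -0.57 ± 0.14. The antiviral GTPase Mx2 differed by -0.86 ± 0.18 and Ifit2 by -0.47 ± 0.11. Not all members were low, since 9 of the 34 had a positive difference. The guanylate-binding protein Gbp3 differed by -0.66 ± 0.18 and Ifit1 by -0.77 ± 0.31, while Bst2, which tethers virus particles, differed by -0.05 ± 0.27, Rsad2, the antiviral enzyme viperin, by -0.15 ± 0.25 and the GTPase Igtp by -0.42 ± 0.27.

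The DNA element through which ISGF3 acts, the interferon-stimulated response element, was looked for as GAAANNGAAA on both strands in promoters from RefSeq (assembly GRCm38.p6), each running from 250 bases before to 50 after a gene's start. It stood in 1131 of all 32851 promoters (3.44%). Promoters were found for 25 of the 34 members, and 15 of their 31 promoters (48.4%) held it. The share was 42.9% (6 of 14 promoters) for the members with an unadjusted p under 0.05 and 52.9% (9 of 17) for the others, so members with the element were on both sides. Parts of 7 promoters are printed 5′ to 3′ on the gene's strand, with the element in capitals on whichever strand it was found. They set 4 members that were lower at an unadjusted p under 0.05 (Ifit3, Isg15, Gbp3, Ifit1) beside 3 that did not reach it (Bst2, Igtp, Rsad2). Except for Ifit3 they were chosen after their values were seen. In the same order they lie at chr19:34583353-34583436, chr4:156200855-156200916, chr3:142559979-142560034, chr19:34640765-34640833, chr8:71537567-71537622, chr11:58199502-58199551 and chr12:26456543-26456592, with Isg15, Bst2 and Rsad2 on the minus strand and the rest on the plus strand.
Ifit3: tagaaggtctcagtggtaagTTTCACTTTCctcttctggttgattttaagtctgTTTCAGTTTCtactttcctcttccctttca
Isg15: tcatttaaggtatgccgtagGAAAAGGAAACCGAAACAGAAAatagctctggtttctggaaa
Gbp3: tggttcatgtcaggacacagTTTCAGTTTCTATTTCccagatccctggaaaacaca
Ifit1: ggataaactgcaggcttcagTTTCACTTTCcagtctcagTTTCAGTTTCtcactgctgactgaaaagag
Bst2: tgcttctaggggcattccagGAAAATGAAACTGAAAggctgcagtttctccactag
Igtp: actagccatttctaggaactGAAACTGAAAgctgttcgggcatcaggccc
Rsad2: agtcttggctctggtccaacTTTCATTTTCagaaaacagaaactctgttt
The capitals of Isg15 hold 3 overlapping matches, those of Gbp3 and Bst2 hold 2 overlapping ones, Ifit3 and Ifit1 each have 2 matches apart from each other, and Igtp and Rsad2 have 1. A match of letters is a description of the promoter and does not show binding.

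Macrophage genes had the lowest median of all 32 lists in the reported fit, -0.71. The cholesterol supply list was lower under median scaling (-0.79 against -0.75) and without C1 (-0.83 against -0.58). It was also lower without C3 (-0.70 against -0.65), E2 (-0.77 against -0.65) or E3 (-0.66 against -0.60). The same held without the array of C1 and C2 (-0.80 against -0.38) or of E1 and E2 (-0.88 against -0.63). The theca list was lower in several settings too, such as without C4 (-0.90 against -0.89) or without C3 and C4 (-1.02 against -0.98). The rank therefore depended on the setting. Macrophages are the most common immune cells of the ovary and clear dying follicles and corpora lutea. Of 20 measured markers, 11 had an unadjusted p under 0.05, all lower, and 7 of the 17 measured in all samples were separated, all lower, against 9.4% and 11.9% of all genes. The lower count was 7 without C3 or E2, 6 without E3, and 6 without E1 and E2 or without E3 and E4. Without the array of C1 and C2 it was 0 and the median -0.38. In a whole ovary, fewer cells of a type and less RNA per cell cannot be told apart, here and for every cell type below.

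All 3 chains of the complement protein C1q were separated and had an unadjusted p under 0.05. C1qb measured 10.93, 10.75, 10.51 and 9.92 in C1 to C4 and 9.61, 9.42, 9.44 and 9.88 in E1 to E4 (-0.94 ± 0.26). C4 and E4 were nearly level, and the other samples were clearly apart. C1qa differed by -0.87 ± 0.24 and C1qc by -0.93 ± 0.30, with the same order of controls. Adgre1, the surface protein most used to mark mouse macrophages, measured 9.88, 9.77, 9.66 and 9.23 in the controls and 8.98, 8.91, 8.65 and 8.97 in E1 to E4 (-0.76 ± 0.21). The mannose receptor Mrc1 differed by -0.70 ± 0.20. Over 17 markers the mean level was 10.24, 10.14, 9.84 and 9.44 in C1 to C4 and 9.49, 9.21, 9.25 and 9.59 in E1 to E4, so C4 lay inside the early-life range.

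Other immune lists had smaller medians than the macrophage list. H2-Aa and H2-DMa, a chain and a loading factor of MHC class II molecules, differed by -0.50 ± 0.18 and -0.44 ± 0.15 and were the 2 of 7 class II genes with an unadjusted p under 0.05 (median -0.32). That median was -0.16 without C1, -0.19 without E2 and -0.0176 without the array of C1 and C2, where 0 members were lower and 1 higher. Among 10 lymphocyte markers 4 were lower and 1 higher at that level (median -0.16), and 1 was lower without the array of C1 and C2. Ptprc, the antigen CD45 of all white blood cells, measured 8.48, 8.50, 8.31 and 8.15 in the controls and 7.999, 7.81, 7.93 and 8.05 in E1 to E4 (-0.42 ± 0.12). The T-cell genes Cd3e and Lck differed by -0.26 ± 0.10 and -0.41 ± 0.16, and Thy1, which ovarian stromal and neural cells also carry, by -0.85 ± 0.25. The B-cell subset had a median of 0.08 over 3 genes and the granulocyte list one of -0.08 over 10, with 0 members of either at an unadjusted p under 0.05. The mean level of the granulocyte list was 0.236 higher in early life, opposite in sign to its median. That mean includes Ltf, the member with the highest difference (2.92), which also belongs to the oviduct secretory list.

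Blood vessel and muscle genes were mostly on the negative side. Of 14 endothelial markers 4 had an unadjusted p under 0.05 and 5 of 11 were separated, all lower, against 9.4% and 11.9% of all genes, with a median of -0.26. At that level 2 markers were lower without C3, C4 or E3 and 1 without E1. The roundabout receptor Robo4, found on endothelial cells, measured 11.95, 11.59, 11.84 and 11.78 in C1 to C4 and 11.01, 11.54, 11.17 and 11.12 in E1 to E4 (-0.58 ± 0.17). E2 nearly reached C2, and the other early-life samples were clearly lower. Emcn, Eng and Kdr, which encode endomucin, the TGF-beta co-receptor endoglin and the main VEGF receptor, differed by -0.48 ± 0.17, -0.50 ± 0.21 and -0.23 ± 0.10. The mean of 11 endothelial markers was below every control in all 4 early-life samples (10.19 to 10.44 against 10.48 to 10.63).

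Of 15 angiogenic signals 5 were lower at an unadjusted p under 0.05 and 0 higher (median -0.32), and the lower count was 2 without C2 or E3, 3 without C3, E1 or E4 and 8 without C4. Angpt1, the ligand that steadies vessels, measured 9.53, 9.72, 9.64 and 9.08 in the controls and 8.74, 9.05, 8.62 and 8.52 in E1 to E4 (-0.76 ± 0.30). The VEGF co-receptor Nrp1 differed by -0.44 ± 0.15 with narrow groups, and the receptor tyrosine kinase Ephb4 by -0.26 ± 0.08, although another Ephb4 probe gave 0.18. All 12 smooth muscle genes had a negative difference (median -0.59), but only Smtn, Mylk and Lmod1 had an unadjusted p under 0.05 and 1 of 10 was separated, near the background share. The smooth muscle median was -0.39 without C1 and -0.28 without the array of C1 and C2, and 7 members were lower at that level without C4. Smtn, smoothelin, differed by -0.40 ± 0.13 and Mylk, the myosin light chain kinase, by -0.49 ± 0.20, with 0.04 at another probe. Lmod1 was not well above background in early-life samples, and its level was at least 1.53-fold lower. Acta2, smooth muscle actin, measured 15.61, 15.25, 14.98 and 14.47 in the controls and 14.30, 14.49, 14.42 and 14.56 in E1 to E4, where C4 lay inside the early-life range.

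Theca cells surround the follicle and make androgens from cholesterol. Of 9 markers 3 had an unadjusted p under 0.05, all lower, against 9.4% of all genes, and the median was -0.68. The 1 member with a positive difference was Cyp17a1, the androgen-forming enzyme (0.95 ± 0.90). The lower count was 1 without C2, C3 or E1, and without the array of C1 and C2 it was 0 and the median -0.22. Aldh1a1, which makes retinoic acid, measured 17.56, 17.34, 17.42 and 16.47 in C1 to C4 and 16.02, 16.59, 16.27 and 16.48 in E1 to E4 (-0.86 ± 0.30). The hedgehog target Gli1, the mesenchymal factor Tcf21 and the growth factor receptor Pdgfra differed by -0.83 ± 0.31, -0.73 ± 0.28 and -0.68 ± 0.31. C4 was the lowest control in all 4 genes and lay within the early-life range of each.

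Matrix genes were mixed. Of 33 members, 1 was higher and 5 were lower at an unadjusted p under 0.05, and the median was -0.11. Both counts lie near the 4.47% and 9.4% of all genes. Lower members numbered 3 without C2, C3 or E3 and 9 without C4, the median ran from -0.20 to -0.075 without single samples, and median scaling gave 11 lower and a median of -0.34. Mmp2, the gelatinase that opens basement membranes, measured 12.58, 12.45, 12.39 and 11.79 in the controls and 11.30, 11.36, 11.05 and 11.59 in E1 to E4 (-0.98 ± 0.29). The protease Mmp19 and the protease inhibitor Timp3 differed by -0.64 ± 0.19 and -0.51 ± 0.19, and the collagen Col5a2 by -0.64 ± 0.23. Mmp19 was well above background in 4 controls, 1 early-life and 2 peripubertal samples. It therefore met the filter on dim probes only through the controls. In the other direction the aggrecanase Adamts5 measured 7.196, 7.14, 7.09 and 7.36 in the controls and 8.40, 8.34, 7.94 and 7.48 in E1 to E4 (0.84 ± 0.25), with E4 nearly level with C4.

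Steroid synthesis starts when cholesterol enters mitochondria and its side chain is removed. Of 18 genes, 4 were lower and 1 higher at an unadjusted p under 0.05, with a median of -0.25. The lower count was 2 without C3 and 0 without E1, and the median was -0.15 without C3 and -0.49 under median scaling. Star, the carrier of cholesterol into mitochondria, measured 13.10, 14.65, 14.67 and 16.14 in C1 to C4 and 12.60, 13.62 and 11.51 in E1, E2 and E4, with no value for E3. The spread was wide in both groups, E2 lay above C1, and the difference was -2.16 ± 1.12 (adjusted p = 0.421, limma). Fdxr, the reductase that feeds electrons to the mitochondrial P450 enzymes, measured 15.67, 15.86, 15.90 and 15.92 in the controls and 14.85, 15.67, 14.68 and 14.80 in E1 to E4 (-0.84 ± 0.29). E2 was level with C1 and the other 3 early-life samples were well below.

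Fdx1, the electron carrier next in that chain, differed by -1.28 ± 0.47 on only 2 early-life values, and another probe gave -0.44. The regulator Nr5a1 differed by -0.42 ± 0.16, the mitochondrial membrane protein Tspo by -0.59 ± 0.26 and Nr0b1, a repressor of Nr5a1 targets, by 0.59 ± 0.21. The P450 enzymes of the pathway named next had overlapping groups. Cyp11a1, which cuts the side chain, differed by -0.20 ± 0.33, Cyp17a1, the androgen-forming enzyme, by 0.95 ± 0.90 without a value for E4, and Cyp19a1, the aromatase, by -0.41 ± 0.91. Early-life values of Cyp19a1 ran from 9.85 in E2 to 13.37 in E3, far wider than the 11.43 to 12.85 of the controls.

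Cholesterol supply genes were nearly all on the negative side, 29 of 31, with a median of -0.61. Only 3 had an unadjusted p under 0.05 and 2 of 22 were separated, close to the background shares. The median was -0.32 without C4. The lower count was 8 without C1, 5 without E2, 1 without C2 or E4, 0 without E1 and 16 in the deposited value table. Mvk, mevalonate kinase, measured 12.88, 13.36, 13.22 and 13.56 in C1 to C4 and 12.18, 12.82, 12.40 and 12.21 in E1 to E4 (-0.85 ± 0.30), and another probe gave -1.05. Stard4, a cytosolic sterol carrier, differed by -0.96 ± 0.38, though another probe gave -0.22. The mean of 22 members ranged from 11.55 in C1 to 12.51 in C4 and from 11.13 in E4 to 11.83 in E2. Only C1 and E2 overlapped. The sterol response element, searched as TCACNCCAC on both strands, stood in 0 of the 30 promoters found for 22 members and in 1.24% of all promoters, which says only that these letters are not in those windows.

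**Figure D3:**
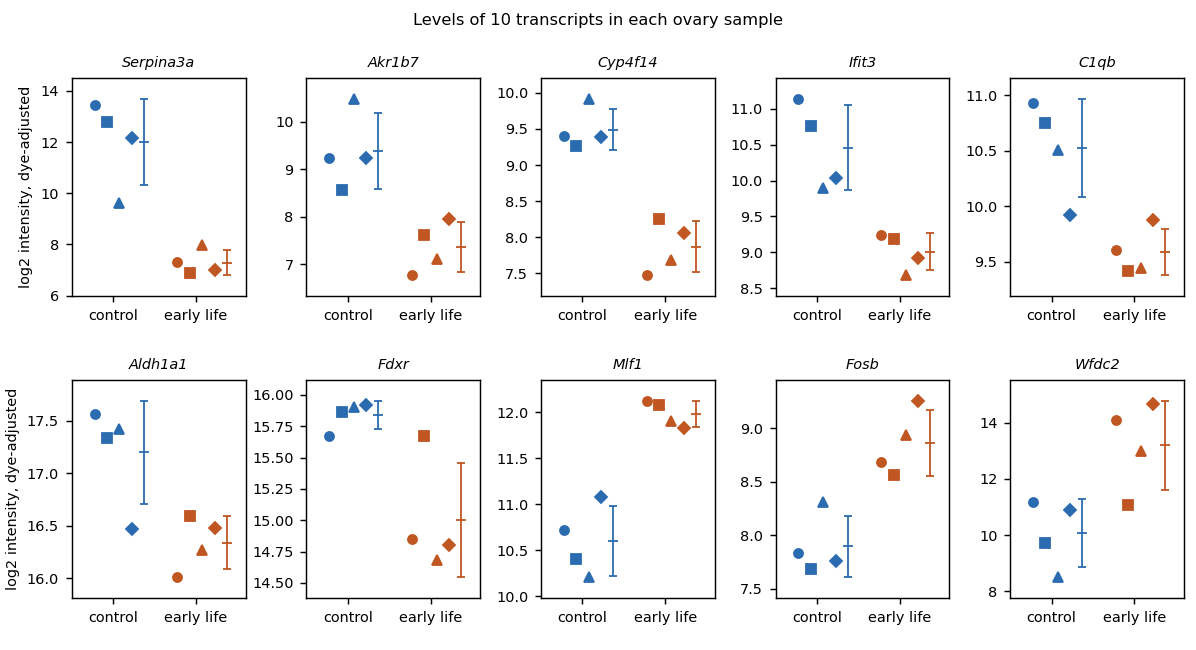
Log2 intensity, adjusted for dye (vertical axes, each with its own range), of 10 genes in the 4 control (blue) and 4 early-life samples (orange), with marker shapes for replicates 1 to 4 (circle, square, triangle, diamond) and bars for mean ± SD. Serpina3a, Akr1b7, Cyp4f14, Ifit3, Mlf1 and Fosb are fully separated, and C1qb is separated only by the narrow step from E4 to C4. C4 overlaps the early-life samples in Aldh1a1, and in Wfdc2 E2 (11.06) lies below C1 (11.19).

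Granulosa cells, which feed the oocyte and make estradiol, had a list median of -0.06 (-0.29 under median scaling) with 1 of 16 genes at an unadjusted p under 0.05. That gene was Kitl, the KIT ligand that granulosa cells offer to oocytes and theca cells. It measured 10.13, 9.93, 9.59 and 9.42 in the controls and 9.05, 9.08, 8.95 and 8.96 in E1 to E4 (-0.75 ± 0.23). The early-life samples were nearly level, while the controls spread more. Fshr, Lhcgr, Amh and Inha, which encode both gonadotropin receptors, anti-Müllerian hormone and the inhibin alpha chain, differed by 0.32 ± 0.31, 0.20 ± 0.60, -0.15 ± 0.26 and -0.08 ± 0.17 with overlapping groups. With each sample scaled to its median Lhcgr turned to about 0. The luteal list had a median of 0.02 (-0.15 under that scaling, -0.40 without C1), with 0 of 12 genes at an unadjusted p under 0.05.

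Oocyte genes were mostly on the positive side by small amounts, with 22 of 24 differences positive, a median of 0.20, 1 member at an unadjusted p under 0.05 and 0 of 20 separated. Gdf9, the growth factor through which oocytes act on granulosa cells, measured 14.30, 14.59, 13.87 and 13.95 in C1 to C4 and 14.61, 14.78, 14.38 and 13.91 in E1 to E4, and its difference of 0.24 ± 0.25 turned to -0.02 under median scaling. The list median was 0.055 without E2, -0.03 without C3 and C4 and -0.08 without E1 and E2. Steroid and peptide hormone receptors had a median of 0.10 (-0.08 under median scaling, -0.11 without C1). The estrogen receptors Esr1 and Esr2 differed by 0.61 ± 0.48 and 0.44 ± 0.22, the progesterone receptor Pgr by 0.54 ± 0.43 without a value for E4, and the oxytocin receptor Oxtr by -1.17 ± 0.60. Among genes induced by luteinizing hormone, only the prostaglandin receptor Ptger2 had an unadjusted p under 0.05 (-0.80 ± 0.30), of 13 measured (median -0.06).

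In the TGF-beta, AMH and inhibin family single receptors stood out in opposite directions. Acvr2b, a type II receptor for activin, measured 10.83, 11.10, 11.09 and 10.96 in the controls and 11.72, 11.56, 11.44 and 11.35 in E1 to E4 (0.52 ± 0.11). Acvr1, a type I receptor for BMP ligands, measured 12.90, 12.88, 12.35 and 11.88 against 11.60, 11.63, 11.64 and 11.73 (-0.86 ± 0.25), with another probe at -0.56. The early-life samples of Acvr1 were almost level and the controls were spread. The ligand Tgfb2 differed by 0.36 ± 0.12 and Smad6, which inhibits BMP signalling, by -0.55 ± 0.21. In all, 3 of 33 members were higher and 3 lower at an unadjusted p under 0.05, and the median was 0.04 (-0.12 under median scaling).

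The insulin and IGF axis had a median of 0.01. At an unadjusted p under 0.05, 2 of 9 signalling genes were higher and 0 lower, 2 of 7 binding proteins were lower and 0 higher, and the difference between these roles was not tested. Both roles held members of either sign. Irs1, the docking protein of the insulin and IGF receptors, measured 12.06, 11.96, 11.92 and 11.66 in C1 to C4 and 12.76, 12.52, 12.60 and 12.72 in E1 to E4 (0.75 ± 0.16; adjusted p = 0.167, limma). Pik3r1, the regulatory subunit of PI3-kinase, measured 10.50, 10.28, 11.39 and 10.92 against 11.85, 12.51, 11.92 and 11.61 (1.20 ± 0.31). Both were separated, Irs1 by the wider margin. Igfbp7 and Igfbp2, which bind IGFs, differed by -0.69 ± 0.20 and -0.42 ± 0.16, and the ligand Igf1 by -0.54 ± 0.20.

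Immediate-early genes, which respond to stimuli within minutes, were the pathway list with the highest median, 0.32. Of 22 members 5 had an unadjusted p under 0.05, all higher, against 4.47% of all genes, and 4 of 17 were separated and higher with 1 lower. Without the array of C1 and C2 the higher count was 3 and the median 0.21. Fosb, a partner in the AP-1 transcription factor, measured 7.83, 7.68, 8.31 and 7.76 in C1 to C4 and 8.68, 8.56, 8.93 and 9.26 in E1 to E4 (0.96 ± 0.21). Fos measured 8.23, 8.41, 8.99 and 8.74 against 9.64, 9.67, 9.997 and 9.35 (1.07 ± 0.35). C3 was the highest control of both, still below every early-life sample. Ccn1, a secreted matricellular protein, differed by 0.61 ± 0.21, Arc by 0.68 ± 0.27, and the stress-response gene Ier3 by 1.53 ± 0.41 without values for E1 and E2. The CArG box through which serum response factor acts stood in 5 of the list's 24 promoters (20.8%), which belong to only 2 genes, 3 of them sharing 1 site of Egr2, and in 1.63% of all promoters. The cAMP element TGACGTCA stood in 3 promoters of 3 genes (12.5%) and in 1.79% of all, both searched on both strands. The members with an unadjusted p under 0.05 had 4 promoters, and 0 of these held either element.

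Clock and heat shock genes had medians of -0.06 over 15 and 0.03 over 15 genes, the former -0.23 without E2 and the latter -0.22 under median scaling. In the clock list Bhlhe40, a repressor, differed by -0.55 ± 0.17 and Dbp, an output factor whose RNA swings strongly over the day, by -0.77 ± 0.28. Dbp measured 14.60, 14.37, 14.47 and 14.46 in the controls and 14.06, 14.34, 13.24 and 13.20 in E1 to E4, so the early-life samples were widely spread and E2 came close to C2.

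Oviduct and cilia markers varied more between samples than the other lists. The oviduct lies against the ovary and is lined by secretory and ciliated cells. All 13 oviduct secretory markers measured had a positive difference, and their median was 1.62, but only 2 had an unadjusted p under 0.05 and 0 of 11 were separated. Without E2, 12 of the 13 reached that p and the median was 2.32. The count was 5 without C1 or C4 and 1 without C2, C3, E1 or E4, and the median was 0.99 without C3 and 1.002 without E1. Wfdc2, a secreted protein of reproductive tract epithelium, measured 11.19, 9.71, 8.51 and 10.90 in C1 to C4 and 14.11, 11.06, 12.99 and 14.66 in E1 to E4 (3.12 ± 1.00; adjusted p = 0.253, limma). E1, E3 and E4 were above all controls, and E2 lay under C1. Ovgp1, the oviduct's own glycoprotein and the list's defining marker, had only 2 control values, 10.17 in C3 and 15.55 in C4, against 18.41, 10.99, 16.05 and 16.94 in E1 to E4. The factors Pax8 and Elf3 and the secreted protein Ltf had the same high samples, with differences of 1.76 ± 0.93, 1.62 ± 0.64 and 2.92 ± 1.605.

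Motile cilia genes had a median of 1.23, with 24 of 25 positive, 2 at an unadjusted p under 0.05 and 0 of 21 separated. Without E2, 17 reached that p and the median was 1.93. The count was 9 without C4, 4 without C1, 1 without C2 and 0 without C3, E1 or E4, and the median was 0.78 without E1. Foxj1, the master regulator of motile cilia, measured 11.89, 8.38, 8.04 and 11.84 in the controls and 13.26, 9.57, 12.32 and 13.38 in E1 to E4 (2.09 ± 1.53). C1 and C4 were high among controls, as in the oviduct list, and E2 was low. The cilia genes Cfap44, Ccdc40 and Fam183b differed by 1.48 ± 0.57, 1.63 ± 0.76 and 2.27 ± 1.07, and the axonemal dynein Dnah9, not well above background in any control, was at least 1.43-fold higher. Ovarian surface epithelium genes, which oviduct cells share in part, had a median of 0.60 (0.35 without E4), with 1 of 12 at an unadjusted p under 0.05 and 9 without E2. In this list Wt1 differed by 0.50 ± 0.19, Cdh1 by 1.53 ± 0.86 and Krt19 by 1.25 ± 0.85.

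Fat cell genes differed in another pattern of samples. Of 18 markers 6 were higher and 1 lower at an unadjusted p under 0.05, 5 of 17 were separated and higher, against 4.47% and 3.64% of all genes, and the median was 0.78. The higher count was 3 without E1, 1 without E3 and 0 without C3, and the median was 0.44 without E1 and 1.16 without E2. Cfd, the protease adipsin, measured 12.68, 11.998, 9.69 and 11.53 in C1 to C4 and 16.84, 13.12, 14.10 and 13.68 in E1 to E4 (2.96 ± 1.17; adjusted p = 0.3204, limma). Adipoq, the hormone adiponectin, measured 9.66, 9.60, 7.74 and 9.004 against 13.52, 10.24, 10.88 and 10.73 (2.34 ± 0.93). E1 stood far above the rest in both, C3 far below, and E2 was next to the controls. Fabp4 and Retn differed by 2.59 ± 1.07 and 2.09 ± 0.83 with the same extremes. The list's mean without reference to single genes was 12.53 in E1, 10.74 to 11.03 in the other early-life samples, 10.41 to 10.48 in C1, C2 and C4, and 9.80 in C3.

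Red blood cell genes were positive in 10 of 10 with a median of 0.86 (0.56 without E1), and 1 had an unadjusted p under 0.05, with 0 to 5 without single samples. Hba-a1 and Hbb-b2, globin chains, differed by 1.21 ± 0.61 and 1.34 ± 0.62, and C3 lay above E2 and E3 in both. The mean level of the red blood cell list ran from 10.87 to 11.95 in the controls and from 11.62 to 12.68 in early-life samples. That of the oviduct list ran from 9.03 to 11.12 and from 9.85 to 13.0, and that of the cilia list from 7.89 to 9.87 and from 8.26 to 10.99. Among early-life samples the interferon and macrophage lists had the same order as the oviduct list, E4, E1, E3 and E2, with means of 9.51, 9.39, 9.03 and 8.99 for interferon and 9.59, 9.49, 9.25 and 9.21 for macrophage genes. Among controls the interferon list again had the oviduct order, C1, C4, C2 and C3, while the macrophage list ran from C1 and C2 through C3 to C4. The part of oviduct, cilia, fat and blood transcripts in the differences of other genes was not tested.

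**Figure D4:**
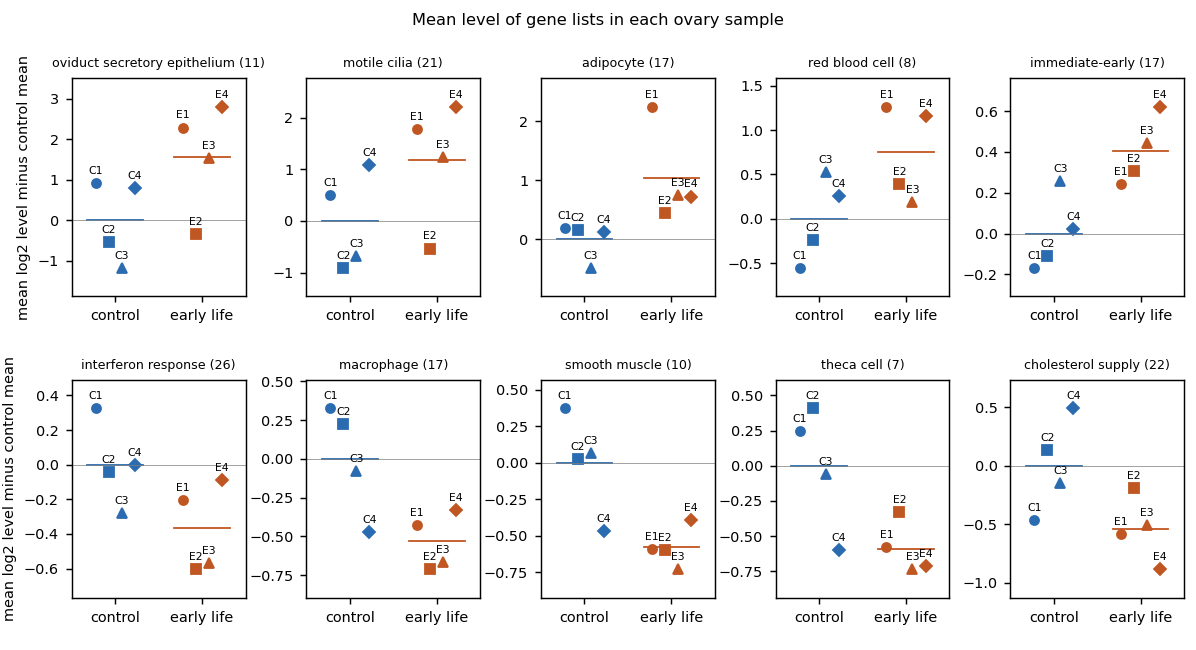
Mean log2 level of 10 gene lists in each sample, as a difference from the control mean (vertical axes, each with its own range), with controls in blue, early-life samples in orange, group means as lines and the number of members with values in all 8 samples in brackets. E2 sits with the controls in the oviduct and cilia panels, and all 4 early-life samples lie above the controls in the adipocyte panel, from 10.74 to 12.53 before the control mean is subtracted.

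Of 38 cell cycle genes 32 were negative (median -0.21) and 5 had an unadjusted p under 0.05, all lower, near the 9.4% of all genes. Without E2 there were 14, without C1 or C2 3, without E1 or E4 2 and without C3 1, and the median was -0.12 without E1 or E4. The replication helicase subunit Mcm5 measured 13.30, 13.63, 13.28 and 13.00 in C1 to C4 and 12.52, 13.05, 12.92 and 12.47 in E1 to E4 (-0.56 ± 0.22). The mitotic kinase Cdk1 and topoisomerase Top2a differed by -0.45 ± 0.18 and -0.47 ± 0.14, the latter without values for E1 and E2, and without E2 Cdk1 passed (difference -0.63, adjusted p = 0.0475, limma). E2 was nearest to the controls in both Mcm5 and Cdk1. Leaving it out therefore widened the Cdk1 difference, and the p value without E2 is no support for it. Oxidative phosphorylation genes had 22 of 26 differences negative and a median of -0.13, with 1 higher and 5 lower at an unadjusted p under 0.05. Median scaling gave a median of -0.40 with 20 lower, and the deposited value table gave 14 lower. Lower members numbered 2 without E1, 3 without C4 and 9 without E2. The mean of 14 members was 14.60 to 14.69 in the controls and 14.46 to 14.57 in early-life samples. The groups of that mean did not overlap, with E2 close to C2.

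Regulators of DNA methylation and chromatin had a median of -0.03 over 20 genes, a range of -0.35 to 0.34 and 1 member at an unadjusted p under 0.05. Tet3, which oxidizes methylcytosine, measured 8.62, 8.71, 8.47 and 8.41 in the controls and 8.22, 8.20, 8.18 and 8.20 in E1 to E4 (-0.35 ± 0.08; adjusted p = 0.192, limma). The early-life samples were nearly level, although another probe gave 0.16.

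**Figure D5:**
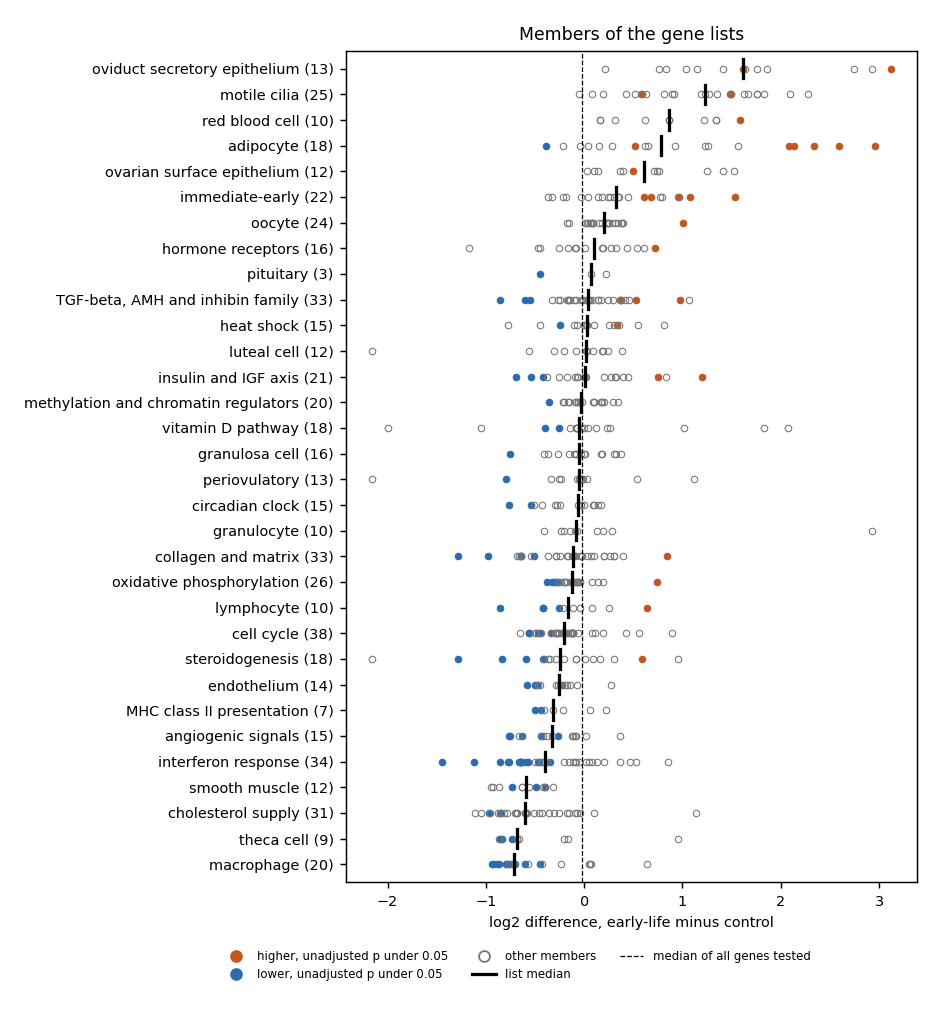
Difference of early-life minus control ovaries on the log2 scale (horizontal axis) for every measured member of the 32 gene lists (rows, number of members in brackets), with filled points for an unadjusted p under 0.05, a bar for the list median and a dashed line for the median of all genes (-0.02). Medians run from -0.71 (macrophage) to 1.62 (oviduct secretory epithelium), and filled points lie on 1 side in the interferon and macrophage lists.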

How the data were processed

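Total RNA was extracted on columns and labelled for 2-colour arrays, per the labels' protocols. Scanning software was Agilent Feature Extraction 11.0.1.1 and probe coordinates are those of mm9, per the file headers. Without an annotation for mm9, exon and UTR are left out. The deposited scanner files give, in intensity units, a mean signal and a local background for every spot, without normalization between channels. They also hold the software's processed signal, which was used only as an alternative. The value table that was deposited is on the log2 scale with each column's median at 0, and how it was made is not given in the sources used here. It served only to test names and as an alternative.

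Background was removed by normexp (offset 50) in limma 3.58.1 under R 4.3.3, with data.table (1.17.8) and statmod (1.5.0). Loess within arrays and Aquantile between them followed, and channels became separate log2 values. Of 44397 features, 1377 were controls, and 43020 held 39429 probes, named through RefSeq accession (27234), symbol (3576), synonym (565) or the file (8054). Outlier spots (2.16% to 3.90% of a channel) were dropped, which left 3.759% of values of tested genes missing. The filter asked for a signal well above background in 4 or more of 12 samples (24297 probes). Each gene took its brightest probe (18854 genes, of which 15597 are RefSeq names). Diet and dye were terms of the model, and arrays formed a random block with a correlation of 0.2858. P values were two-sided and Benjamini-Hochberg adjusted over all genes. The model was also run on simulated data, and the outcome of that run is not reported here. The number of arrays limits the precision.

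Genes are named by 3 rules, namely the 15 widest differences each way among separated genes at p under 0.01, up to 5 members of lowest p in a list with its defining markers, and 15 genes of vitamin D, steroid and follicle function. The groups, members and 32 lists were chosen with earlier results of these data known. Some members are not reported here. For a gene not well above background in a group, a lower bound of its fold is given, against that group's background level. Columns that could not be mapped to a sample by name numbered 0, but the 4 peripubertal columns of the value table matched no scanner channel and were not used. Alternatives were other background, scaling, filter, probe and model choices, and leaving out samples or arrays.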

Additional observations from a re-analysis of the deposited data

Results flagged for a closer look

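In groups of 4, single samples stood apart from the other 3 by a gap that exceeded Dixon's critical share of the group's range in 17 of 336 groups of values examined. Chance gives about 1 in 20 such groups. Among early-life samples, E4 was low in Prkd1 (9.48, others 10.02 to 10.09) and Islr2 (7.24, others 7.47 to 7.49), E2 was high in Tcf21 (12.08, others 11.56 to 11.62), E2 was low in S100g (7.83, others 11.60 to 12.38), E4 was high in Irf7 (8.03, others 7.54 to 7.58), and E1 was high in Mx2 (8.56, others 8.23 to 8.26). E1 also stood apart in the fat cell genes Fabp4 (15.86, others 11.96 to 12.48) and Retn (12.77, others 9.84 to 10.21) and in the mean of the adipocyte list (12.53, others 10.74 to 11.03).

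Among controls, C4 was high in Pgr (7.07, others 6.73 to 6.78), Lrp2 (8.33, others 7.88 to 7.95) and the oxidative phosphorylation list (14.69, others 14.60 to 14.61). It was low in Thy1 (11.96, others 12.62 to 12.71) and the collagen and matrix list (11.10, others 11.54 to 11.57). C3 was low in the adipocyte list (9.80, others 10.41 to 10.48), C1 was low in the luteal list (12.98, others 13.94 to 14.14), and C2 was high in the insulin and IGF list (10.90, others 10.79).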

How the results depend on the processing

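All signs rest on the scanner labels, and 4 samples a group on 4 arrays limit every comparison. Over 27 alternatives, 3732 differences of named genes kept sign and side of the threshold, 41 newly passed it and 16 turned sign, and 21 of 32 list medians kept their sign throughout. Called genes, 0 as reported, numbered 20 with the software's processed signal, 34 with median scaling, 1 with outlier spots kept, 108 without the array block, 35 without the dye term, 6 with trended robust variances, 16 in the deposited value table (columns taken by the scanner channel they match), 75 without array C1 and C2, 19 without C3 and C4, 16 without E1 and E2, 6 without E3 and E4, and 0 to 88 without single samples. The other settings called 0. Genes at an unadjusted p under 0.05, 2614 as reported, numbered 4678 with median scaling, 1703 without E3 and E4, and 1417 to 3996 without single samples. Separated genes, 2464 as reported, numbered 5417, 5377, 6617 and 5195 without array C1 and C2, C3 and C4, E1 and E2, or E3 and E4, 8766 with the samples of an array averaged, where fewer values are compared, and 2774 to 5080 without single samples. With the replicate number as block, 0 genes were called, 3067 had an unadjusted p under 0.05 and 3842 were separated. In their deviations from the group means, same-numbered samples correlated by 0.2111, 0.535, 0.07415 and 0.3744. Differently numbered ones ran from -0.5341 (C2 and E4) to 0.4694 (C3 and E2). The design names the females as biological replicates, and the numbers were not taken as pairs.

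Differences that turned sign all had overlapping groups or few values: Cyp19a1 (-0.82 to 0.18 without single samples, 1.02 without E1 and E2), Lhcgr (-0.00201 with median scaling, -0.25 to 0.56 without single samples, -0.12 without E1 and E2), Amh (0.12 without E3 and E4), Inha (-0.16 to 0.00237 without single samples, 0.025 without C3 and C4), Gdf9 (-0.0162 with median scaling, -0.027 without C3 and C4, -0.036 without E1 and E2), Bst2 (-0.135 to 0.165 without single samples, 0.24 without C3 and C4), Rsad2 (-0.25 to 0.0218 without single samples, 0.16 without E3 and E4) and Ovgp1 (-0.62 to 6.11 without single samples, on 2 control values). The cause of these shifts was not tested beyond the samples or values left out.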
